A study of Mus musculus with 8 samples.

Results

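Transcripts of 34 genes of glutamine and nucleotide synthesis were followed in TEC100.4 cells, an immortalized mouse line derived from cortical thymic epithelial cells. The genes were taken by name: the enzymes of pyrimidine and purine synthesis, the enzymes that supply deoxyribonucleotides, the glutamine, glutamate and aspartate enzymes that feed them, and the folate enzymes that supply carbon. Each gene was read by its brightest probe, the one with the highest mean over all arrays. All 34 were among the 19023 genes tested, so a filter on dim probes removed none of them. The cells carried a mutant of TFII-I, a transcription factor encoded by Gtf2i, under a doxycycline-inducible system. The mutant was of the β isoform in one line and of the δ isoform in the other, and both lines were cultured for 24 h either with doxycycline or without it. Each of the 4 groups was hybridised to 2 one-colour arrays, so there were 8 in total. The treated samples carry a genotype label of overexpression of the β or δ mutant. The untreated samples carry one that names the wild-type form of the same isoform, although their titles name the mutant line, and the titles were followed here. The promoter that drives the mutant, and whether each line is a single clone, are not given in the sources used here. Doxycycline-treated cells without the mutant were not analysed here, so the drug and the induced protein cannot be told apart. The labels do not say whether a group's samples were cultured apart, so each p-value reflects the spread between these samples alone, and that spread may be technical.

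Cells build purines and pyrimidines from glutamine, aspartate, glycine, bicarbonate and one-carbon units carried by folate. The pyrimidine ring is made first and then joined to activated ribose, whereas the purine ring is built on the ribose, reaching IMP and branching from there to AMP and GMP. Ribonucleotide reductase and thymidylate synthase then supply DNA precursors, and salvage enzymes return free bases and nucleosides to the pool. The pathway runs hardest in dividing cells, and MYC is known to bind many of its genes at E-boxes of the letters CACGTG. TFII-I is known to bind initiator elements and E-boxes.

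The starts of 3 purine genes are shown because their transcripts gave the contrasts described below: Paics and Ppat are neighbours on opposite strands, and Paics and Atic hold an E-box where Ppat does not. They were chosen after their values were seen. Each sequence runs 5′ to 3′ on the gene's strand from 250 bases before to 50 bases after the annotated start, in RefSeq's annotation of GRCm38.p6, and capitals mark CACGTG. Paics, which joins neighbouring steps of the purine ring in a single protein, lies at chr5:76951052-76951351 on the plus strand. Ppat, the amidotransferase that opens the pathway, lies at chr5:76951529-76951828 on the minus strand. Atic, which closes the ring to give IMP, lies at chr1:71556906-71557205 on the plus strand.
Paics: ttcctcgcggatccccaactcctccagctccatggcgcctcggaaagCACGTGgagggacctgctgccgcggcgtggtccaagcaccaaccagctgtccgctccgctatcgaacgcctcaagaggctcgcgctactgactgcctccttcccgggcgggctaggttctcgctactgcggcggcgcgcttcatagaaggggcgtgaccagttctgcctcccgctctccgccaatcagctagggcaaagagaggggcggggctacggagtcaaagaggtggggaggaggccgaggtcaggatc
Ppat: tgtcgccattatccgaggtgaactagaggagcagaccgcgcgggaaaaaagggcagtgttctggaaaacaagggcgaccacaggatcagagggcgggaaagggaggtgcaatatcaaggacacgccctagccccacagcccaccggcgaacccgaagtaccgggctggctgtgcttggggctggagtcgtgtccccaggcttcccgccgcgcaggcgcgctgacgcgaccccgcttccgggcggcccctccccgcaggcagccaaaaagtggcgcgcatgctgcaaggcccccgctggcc
Atic: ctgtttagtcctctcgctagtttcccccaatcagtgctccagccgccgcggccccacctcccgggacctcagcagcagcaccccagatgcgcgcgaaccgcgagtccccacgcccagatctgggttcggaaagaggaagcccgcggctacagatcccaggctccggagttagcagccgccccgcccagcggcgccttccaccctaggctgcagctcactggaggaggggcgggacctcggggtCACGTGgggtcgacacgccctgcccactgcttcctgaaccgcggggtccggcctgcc

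The annotated start sites of Paics and Ppat were 276 bases apart, and over that stretch the annotated genes overlap. Counted from the annotated start, the E-box began at position -203 in Paics and at -7 in Atic. RefSeq promoter windows were found for 31 of the 34 genes, 35 windows in all, and none was found for Dhodh, Pfas and Slc1a5. CACGTG, which reads the same on both strands, was present in 6 of the 35 windows (17.1%), in the genes Paics, Atic, Impdh2, Tyms and Nme1, against 7.15% of all 32851 windows of the same length. CCAAT, searched on both strands and unable to overlap CACGTG, was present in 31.4% of the windows and in 37.4% of all windows. These matches describe letters only, and no binding was measured.

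All arrays were on 1 slide and shared 1 scan, with the treated samples in 1 row and the untreated samples in the other, so slide row and treatment cannot be told apart, nor can slide column and line. The scanner software flagged 39512 to 45080 probes of an array as well above background, more on every treated array (at least 43345) than on any untreated array (at most 40698), and no spot was saturated. The untreated δ replicate 1 stood apart: 97 of its 1008 tiles of 8 by 8 spots deviated by more than 0.3 (log2) from the other arrays, against 2 to 26 tiles on each of the others. Of the 34 probes used, 6 lay in a tile that deviated within some group (Rrm2, Tyms, Nme2, Glul, Shmt1 and Mthfd1). Gtf2i, whose mutant was to be induced, had log2 levels of 4.51 ± 0.17 untreated and 4.62 ± 0.05 treated (SD, n = 2) in β, and of 5.18 ± 0.15 and 5.27 ± 0.02 in δ, with limma adjusted p = 0.72 and 0.72. Whether its probe matches the mutant is not known here, so the induction was not checked by it. Of the cortical markers, Prss16, Foxn1, Ctsl, Cxcl12 and Ccl25 were well above background on all 8 arrays, while Psmb11 and Enpep were so on 0 arrays. Of general epithelial markers, Krt8 and Krt18 were well above background on all 8 arrays, Epcam on 1 and Cdh1 on 3. The fibroblast genes Col1a1, Col1a2, Pdgfra, Dcn and Thy1 were well above background on all 8 arrays and Lum on 3. Of the 8 thymocyte genes 5 (Cd3e, Cd4, Cd8a, Cd8b1 and Lck) were so on all 8 arrays and Ptprc, Cd3g and Rag1 on 0. The medullary genes Aire, Krt5 and Krt14 were so on all 8, Ccl21a on 1 and Fezf2 on 0. Among macrophage genes, Csf1r, Cd68 and Itgam were so on all 8 and Adgre1 on 0. The endothelial genes Pecam1, Cdh5 and Kdr were so on all 8 and Tek on 6.

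The first question was what doxycycline did to these transcripts in each line. Levels are log2 intensities relative to each array's 75th percentile, and differences are treated minus untreated on that scale. In the β line 27 of the 34 genes lay below zero, with a median difference of -0.10, against 44.2% of all genes and a median of 0.03. By limma with Benjamini-Hochberg adjustment over all genes at a threshold of 0.05, 0 of the 34 passed, where 0.247% of all genes did, and 10 (29.4%) had an unadjusted p under 0.05, against 18.2% of all genes. Without the untreated β replicate 2, 17 of the 34 lay below zero and the median was -0.017, and without any 1 of the other β arrays the medians ran from -0.19 to -0.059. In the δ line 21 of the 34 lay below zero, with a median of -0.03 against 0.00 for all genes, and 0 passed limma where 0.0736% of all genes did, with 8 (23.5%) at an unadjusted p under 0.05, against 15% of all genes. Without the untreated δ replicate 1, 17 of the 34 lay below zero there and the median was 0.0059. The treated arrays lay wholly below the untreated ones for 11 of the 34 genes in the β line (background 20.3% of genes) and wholly above for 2 (background 26.6%). In the δ line they lay wholly below for 14 (background 27.6%) and wholly above for 11 (background 30.4%). In these bulk samples, fewer cells of a kind and less RNA per cell cannot be told apart.

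**Figure D1:**
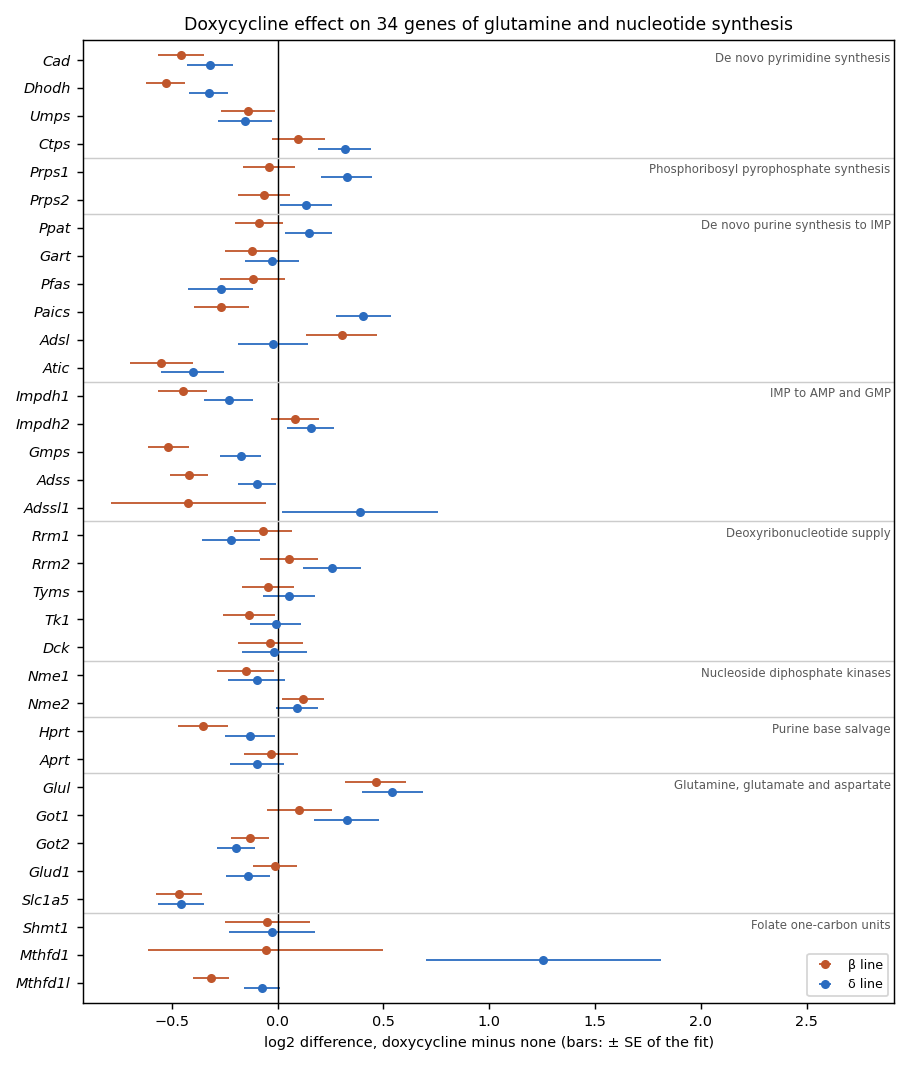
Log2 difference of treated minus untreated arrays for each of the 34 genes, grouped by role, in the β line (orange) and the δ line (blue); points are group mean differences (n = 2 and 2) and bars ± the SE of the limma fit. Most orange points lie left of zero (27 of 34), blue points lie on either side (21 left), and Mthfd1 has the longest bars.

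As a mean over both lines, Dhodh and Slc1a5 fell and no other gene of the 34 passed, 2 of 34 where 3.12% of all genes passed limma. With quantile normalization, or with the 75th percentile taken over probes detected on every array, 3 were lower and 1, Glul, higher, whereas with median centring 0 passed and with normexp background correction Slc1a5 alone. Of the 19 alternatives run, arrays left out included, 10 ended the call of Dhodh and 9 that of Slc1a5. Without the untreated δ replicate 1, Slc1a5 alone passed, and leaving out any 1 of the 6 arrays of the other groups (both β groups and the treated δ group) left 0 passing. Without the untreated δ replicate 2, 4 passed (Dhodh and Slc1a5 lower, Glul and Mthfd1 higher), and in that fit Glul and Mthfd1 also passed in the δ line alone and Mthfd1 in the difference between the lines. The difference between the lines' effects passed for 0 of the 34, where 0.00526% of all genes passed, and 3 (Paics, Gmps and Adss, 8.82%) had an unadjusted p under 0.05, near the 7.53% of all genes. This difference (δ minus β) lay above zero for 26 of the 34 genes, with a median of 0.13 against 0.00 for all genes. Both lines' differences were negative for 20 genes (58.8%, against 27.7% of all genes), both positive for 6, and opposite for 8. The groups were separate in both lines, with treated arrays lower, for 9 genes: Cad, Dhodh, Atic, Impdh1, Gmps, Adss, Got2, Slc1a5 and Mthfd1l (26.5%, against 10.6% of all genes). Glul was the 1 gene separate and higher with doxycycline in both lines (2.94%, against 11.3% of all genes).

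Among the pyrimidine enzymes, Dhodh, the mitochondrial dehydrogenase that forms orotate, gave the clearest values. It read -0.72 and -0.76 on the untreated β arrays, -1.24 and -1.30 on the treated β arrays, -0.84 and -0.96 on the untreated δ arrays, and -1.18 and -1.27 on the treated δ arrays. All 4 treated arrays lay below all 4 untreated arrays. The difference was -0.53 (SE 0.09) in the β line (limma adjusted p = 0.073) and -0.32 (SE 0.09) in the δ line (adjusted p = 0.25), and as a mean of both lines Dhodh fell by 0.43 (SE 0.06, 1.34-fold, limma adjusted p = 0.034). Cad, the protein that carries the opening steps from glutamine to dihydroorotate, read 2.61 and 2.84 on untreated and 2.28 and 2.26 on treated β arrays. Its δ arrays read 2.20 and 2.28 untreated and 1.97 and 1.87 treated. The treated arrays lay below the untreated ones in each line, with differences of -0.46 (SE 0.11, limma adjusted p = 0.11) and -0.32 (SE 0.11, adjusted p = 0.29), and the mean of both lines, -0.39, did not pass (adjusted p = 0.057). A second, dimmer Cad probe gave the other sign in the β line, with -1.33 and -1.25 untreated and -0.78 and -0.75 treated. Its difference there was 0.53, and -0.05 in the δ line, so the probes of Cad disagreed and its direction is uncertain. Umps, which makes UMP from orotate, differed by -0.14 and -0.15 in the lines, with β groups that overlap. Ctps, which uses glutamine to turn UTP into CTP, went the other way, with 3.14 and 3.42 untreated and 3.31 and 3.45 treated in the β line, which overlap. Its δ arrays read 2.57 and 2.44 untreated and 2.83 and 2.82 treated, a difference of 0.32 (SE 0.13, limma adjusted p = 0.32).

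**Figure D2:**
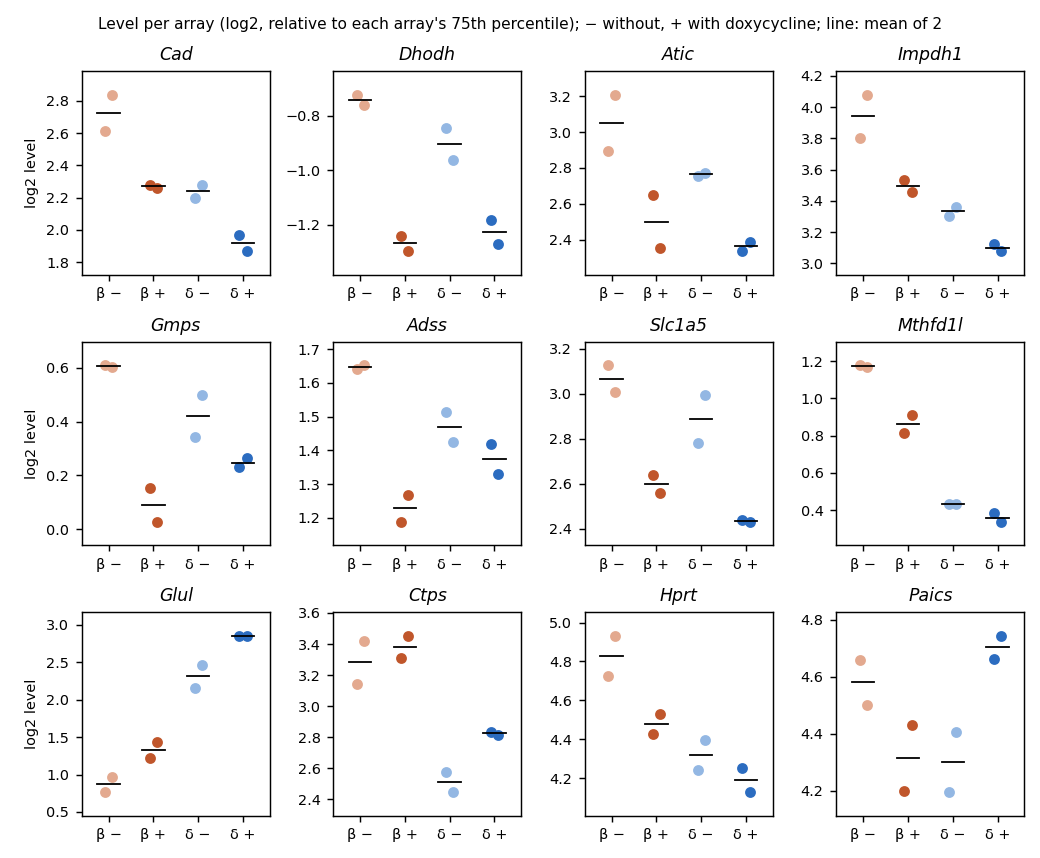
Level on each array (log2, relative to the array's 75th percentile) of 12 genes, without (−) and with (+) doxycycline in each line; each point is 1 array and each line the mean of 2. The axes differ between panels. Dhodh, Atic, Gmps, Adss (narrowly) and Slc1a5 show all treated points below all untreated points, Glul shows the reverse order within each line, and Paics moves in opposite directions in the lines.

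Prps1 and Prps2, which make the activated ribose PRPP, differed by -0.04 and -0.06 in the β line and by 0.33 and 0.13 in the δ line, where both genes' groups were separate. Of the 6 genes from PRPP to IMP, Ppat differed by -0.09 and 0.15 (β and δ), and Gart, a protein of several activities, by -0.12 and -0.03. Pfas, which uses the next glutamine, differed by -0.12 and -0.27. Adsl, adenylosuccinate lyase, differed by 0.30 and -0.02. These 4 genes had no unadjusted p under 0.05 in either line. The SE of a difference in 1 line ran from 0.09 to 0.55 over the 34 genes, with a median of 0.12. Atic gave larger values, with 2.89 and 3.21 untreated and 2.65 and 2.35 treated in the β line. The δ values were 2.76 and 2.77 untreated and 2.34 and 2.39 treated. Its groups did not overlap in either line, with differences of -0.55 (SE 0.15, limma adjusted p = 0.14) and -0.40 (SE 0.15, adjusted p = 0.31), and the mean, -0.48, did not pass (adjusted p = 0.071). Paics, whose levels are shown because the lines went opposite ways, read 4.66 and 4.50 untreated and 4.20 and 4.43 treated in the β line. The δ values were 4.19 and 4.40 untreated and 4.66 and 4.74 treated. The treated arrays were thus the lower ones in β and the higher ones in δ, with differences of -0.27 (SE 0.13, limma adjusted p = 0.35) and 0.41 (SE 0.13, adjusted p = 0.28). The difference between the lines was 0.67 (SE 0.18), with an unadjusted p of 0.0103 and a limma adjusted p of 0.65. The dimmer Paics probe read 0.46 and 0.71 untreated and 0.88 and 1.09 treated in the β line, the opposite sign there. Ppat, its neighbour, overlapped between the β groups, with 0.61 and 0.64 untreated and 0.41 and 0.67 treated, and was higher on both treated δ arrays, at 0.59 and 0.56 against 0.47 and 0.39.

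At the branch from IMP, Impdh1 and Gmps lead to GMP, and Adss and Adssl1 to AMP. Gmps, the glutamine-dependent GMP synthase, read 0.61 and 0.60 untreated and 0.15 and 0.03 treated in the β line. The δ values were 0.34 and 0.50 untreated and 0.23 and 0.26 treated. The β difference, -0.52 (SE 0.10, limma adjusted p = 0.084), was larger in size than the δ difference, -0.17 (SE 0.10, adjusted p = 0.42), and the difference between them, 0.34, had an unadjusted p of 0.048 and an adjusted p of 0.65. Impdh1, an IMP dehydrogenase, read 3.80 and 4.08 untreated and 3.53 and 3.46 treated in the β line, and in the δ line 3.30 and 3.36 untreated and 3.12 and 3.08 treated. It was lower on all treated arrays of each line, with differences of -0.45 (limma adjusted p = 0.14) and -0.23 (adjusted p = 0.39). Impdh2, the other isoform, differed by 0.08 and 0.16, and its second probe had the other sign in the β line. Adss, which starts the branch to AMP, read 1.64 and 1.65 untreated and 1.19 and 1.27 treated in the β line, and 1.51 and 1.43 against 1.42 and 1.33 in the δ line. Its differences were -0.42 (SE 0.09, limma adjusted p = 0.098) and -0.10 (SE 0.09, adjusted p = 0.61). Adssl1, the form known from muscle, was well above background on 6 of the 8 arrays and had differences of -0.42 and 0.39 with an SE of 0.37.

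The 5 genes that supply deoxyribonucleotides had differences between -0.22 and 0.26. Rrm1 and Rrm2, the subunits of ribonucleotide reductase, differed by -0.07 and 0.06 in the β line and by -0.22 and 0.26 in the δ line, where the spots of Rrm2 on the untreated arrays lay in a deviant tile. Tyms, thymidylate synthase, differed by -0.05 and 0.05, Tk1, thymidine kinase, by -0.14 and -0.01, and Dck, deoxycytidine kinase, by -0.04 and -0.02. None of the 5 had an unadjusted p under 0.05 in either line or in their mean. The nucleoside diphosphate kinases Nme1 and Nme2 differed by -0.15 and 0.12 in the β line and by -0.10 and 0.09 in the δ line. Of the salvage enzymes, Hprt, which recovers hypoxanthine and guanine, read 4.72 and 4.93 untreated and 4.43 and 4.53 treated in the β line, and 4.24 and 4.40 against 4.25 and 4.13 in the δ line. The β groups were separate and the δ groups overlapped, with differences of -0.35 (SE 0.12, limma adjusted p = 0.20) and -0.13 (SE 0.12, adjusted p = 0.60). Aprt, which recovers adenine, differed by -0.03 and -0.10.

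The glutamine genes split. Slc1a5, the transporter that brings glutamine into the cell, read 3.13 and 3.01 untreated and 2.64 and 2.56 treated in the β line. The δ arrays gave 2.78 and 2.996 untreated and 2.44 and 2.43 treated. Every treated array lay below every untreated one. The differences in the lines were nearly equal, -0.47 (SE 0.11, limma adjusted p = 0.11) and -0.46 (SE 0.11, adjusted p = 0.20), and as a mean of both lines Slc1a5 fell by 0.46 (SE 0.08, 1.38-fold, limma adjusted p = 0.041). The difference between the lines was 0.01, with a 95% interval from -0.36 to 0.39. Glul, glutamine synthetase, which makes glutamine from glutamate, read 0.76 and 0.97 untreated and 1.23 and 1.44 treated in the β line. For the δ arrays the levels were 2.16 and 2.46 untreated and 2.86 and 2.85 treated. It was higher on the treated arrays of each line, by 0.46 (SE 0.14, limma adjusted p = 0.18) and 0.54 (SE 0.14, adjusted p = 0.24), and the mean, 0.50, did not pass (adjusted p = 0.060). Its spot lay in a tile that read -0.31 on the untreated δ replicate 1 relative to the other arrays. Of its dimmer probes outside that tile, 1 read 0.93 and 0.87 untreated and 0.94 and 0.84 treated in the δ line, and the other -1.10 and -1.33 against -1.17 and -1.30, so neither was higher with doxycycline there. In the β line the dimmer probes differed by 0.27 and 1.05, the second resting on 1 treated array at -0.89 against the other at -2.43. Got1 and Got2, the cytosolic and mitochondrial aspartate aminotransferases, differed by 0.10 and -0.13 in the β line and by 0.33 and -0.20 in the δ line. Glud1, glutamate dehydrogenase, differed by -0.01 and -0.14.

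Of the folate enzymes, Mthfd1l, which makes formate in mitochondria, read 1.18 and 1.17 untreated and 0.81 and 0.91 treated in the β line, and 0.43 and 0.43 against 0.38 and 0.34 in the δ line. Its groups were separate in each line, with differences of -0.31 (SE 0.09, limma adjusted p = 0.15) and -0.07 (SE 0.09, adjusted p = 0.68). Shmt1, which moves a carbon from serine to folate in the cytosol, differed by -0.05 and -0.03. Mthfd1, a cytosolic enzyme of several activities, gave 1.25 in the δ line with an SE of 0.55, and the value rests on 1 array: it read 2.64 and 4.54 untreated and 4.84 and 4.85 treated. The spot at 2.64 lay in a tile that read -1.77 relative to the other arrays, and the dimmer Mthfd1 probe, elsewhere on the slide, differed by 0.12 there.

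Several of the 34 genes had more than 1 probe, and these probes were compared before a direction was given. Of 13 genes with several kept probes, 6 gave opposite signs for doxycycline in the β line (Paics, Ppat, Cad, Impdh2, Got1 and Mthfd1) and 4 in the δ line (Tyms, Glul, Umps and Got1). Between the lines 5 gave opposite signs without doxycycline (Paics, Cad, Impdh2, Shmt1 and Mthfd1) and 3 with it (Ppat, Shmt1 and Got1). Dhodh, Slc1a5, Atic, Gmps, Adss, Impdh1, Ctps and Hprt had 1 kept probe, so no second probe bears on them.

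**Figure D3:**
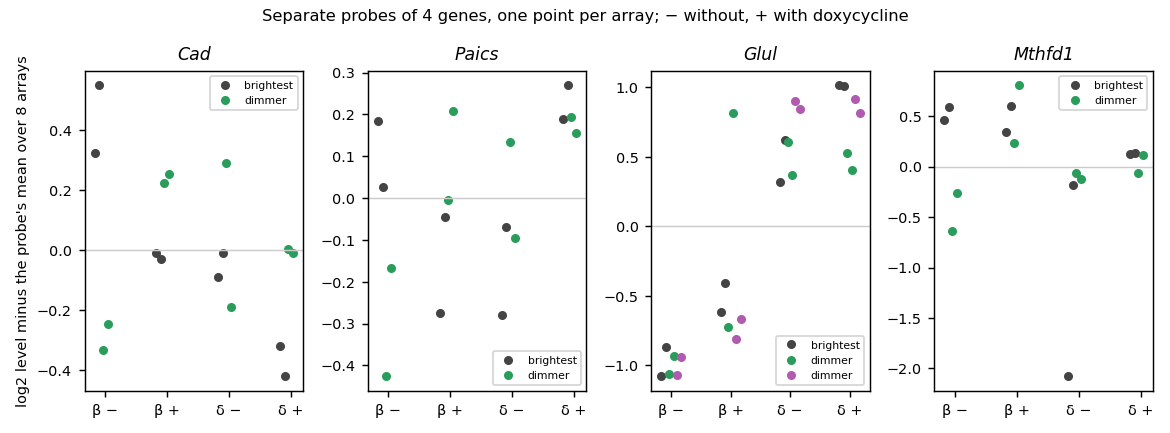
Level on each array minus the probe's own mean over the 8 arrays (log2), for every kept probe of Cad, Paics, Glul and Mthfd1; grey points are the brightest probe and green and purple points the dimmer ones. The probes of Cad and Paics cross in the β line, every Glul point of the δ line lies above the β points of the same probe except for 1 treated β array, and the brightest Mthfd1 probe has 1 untreated δ array far below the rest.

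The second question was how the lines differed, which sets the δ line against the β line under the same treatment. Without doxycycline 29 of the 34 genes lay below zero (lower in the δ line), with a median of -0.20, against 47% of all genes and a median of 0.02. By limma, 5 were lower (Cad, Ctps, Impdh1, Hprt and Mthfd1l) and 1 higher (Glul), 6 of 34 where 13.2% of all genes passed. The δ arrays lay wholly below the β arrays for 24 genes (background 23.9%) and wholly above for 2 (background 29%). With doxycycline 22 of the 34 lay below zero, with a median of -0.18 against -0.01 for all genes, and limma gave 2 lower (Ctps and Mthfd1l) and 1 higher (Glul), 3 of 34 where 15.3% of all genes passed. There the δ arrays lay wholly below for 18 genes (background 33.1%) and wholly above for 7 (background 35.4%). In both treatments the δ arrays were separate and lower for 15 genes (44.1%, against 15.2% of all genes) and separate and higher for 1, Glul (2.94%, against 20.7%). These comparisons share no array with each other, but each shares 2 groups with the doxycycline comparisons. With median centring in place of the 75th percentile, 2 were lower and 1 higher without doxycycline, and 0 lower and 1 higher with it. With doxycycline, quantile normalization gave 6 lower and 1 higher, and the 75th percentile over probes detected on every array 5 lower and 1 higher. Without the untreated δ replicate 1, 3 were lower (Ctps, Mthfd1 and Mthfd1l) and 1 higher (Glul) without doxycycline, and 30 of 34 lay below zero. Leaving out either treated δ array left 3 called without doxycycline and 1, Glul, with it, and so did the treated β replicate 2 for the comparison with doxycycline.

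**Figure D4:**
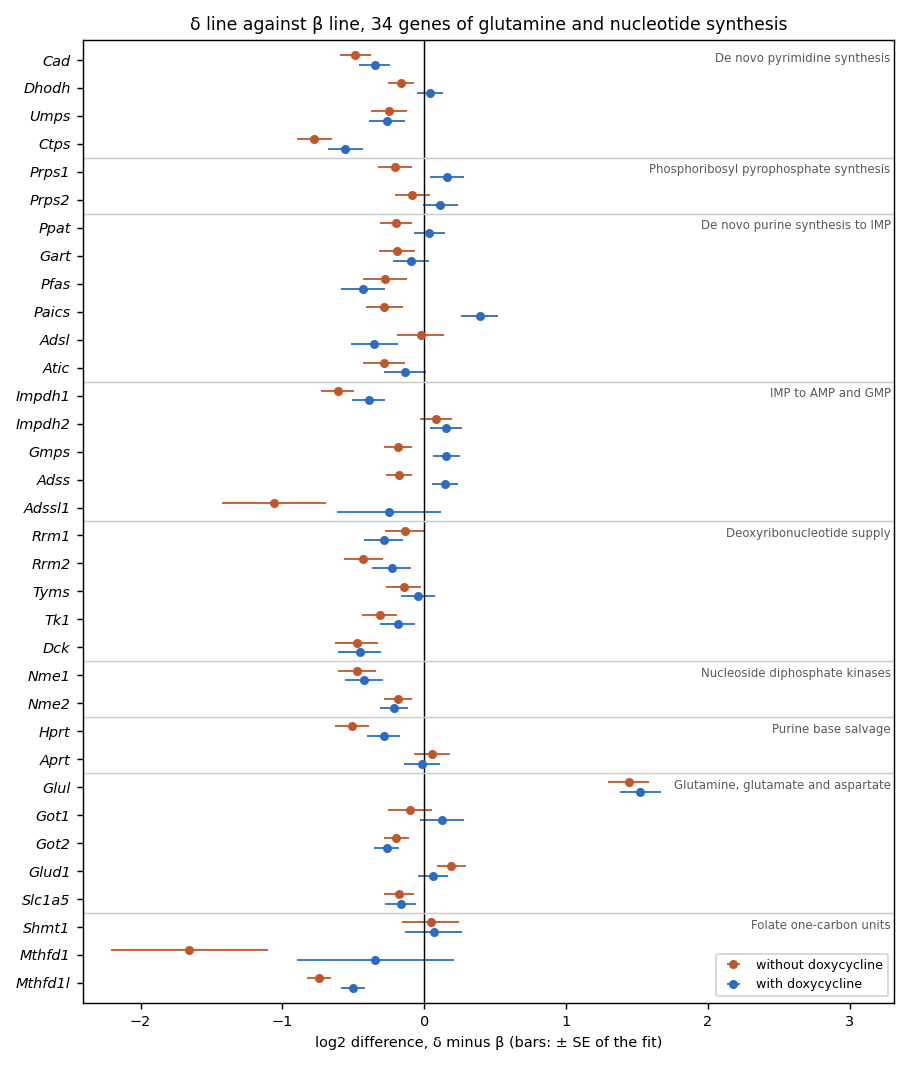
Log2 difference of the δ line minus the β line for each of the 34 genes, grouped by role, without doxycycline (orange) and with it (blue); points are group mean differences (n = 2 and 2) and bars ± the SE of the limma fit. Glul stands alone on the right at 1.44 and 1.52, most other points lie left of zero (29 of 34 without and 22 with doxycycline), and Mthfd1 and Adssl1 have the widest bars.

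Glul differed most clearly between the lines. All 4 δ arrays, at 2.16 to 2.86, lay above all 4 β arrays, at 0.76 to 1.44. The δ line was higher by 1.44 without doxycycline (SE 0.14, 2.72-fold, limma adjusted p = 0.0020) and by 1.52 with it (SE 0.14, 2.87-fold, adjusted p = 0.0018). Its dimmer probes were higher in the δ line too, by 1.88 and 1.49 without doxycycline and by 1.61 and 0.42 with it. Without the untreated δ replicate 1, the difference without doxycycline was 1.59.

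The synthesis genes that passed lay the other way. Mthfd1l was lower in the δ line, with a difference of -0.74 without doxycycline (SE 0.09, 1.67-fold, limma adjusted p = 0.0034) and of -0.50 with it (SE 0.09, 1.41-fold, adjusted p = 0.015), and all its β arrays, from 0.81 to 1.18, lay above all its δ arrays, from 0.34 to 0.43. Ctps was lower too, with a difference of -0.77 without (SE 0.13, 1.71-fold, limma adjusted p = 0.012) and of -0.56 with doxycycline (SE 0.13, 1.47-fold, adjusted p = 0.035). Its δ arrays, from 2.44 to 2.83, all lay below its β arrays, from 3.14 to 3.45. Impdh1 passed without doxycycline at -0.61 (SE 0.12, limma adjusted p = 0.022) and not with it, at -0.39 (adjusted p = 0.074). Hprt passed without doxycycline at -0.51 (SE 0.12, limma adjusted p = 0.042) and not with it, at -0.29 (adjusted p = 0.16). Cad passed without doxycycline at -0.49 (SE 0.11, limma adjusted p = 0.037), but its dimmer probe differed by 0.34 in the other direction, and with doxycycline it differed by -0.35 (adjusted p = 0.084). Without the untreated δ replicate 1 the differences of Cad, Impdh1 and Hprt were -0.45, -0.58 and -0.43 and no longer passed. For the 3 genes that passed in 1 treatment only, the change of the line difference with doxycycline, 0.14 for Cad, 0.22 for Impdh1 and 0.22 for Hprt, had adjusted p-values of 0.76, 0.70 and 0.70 by limma.

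By role, the δ line was lower without doxycycline for all 6 genes from PRPP to IMP, with a median of -0.24 and 0 called. Adsl was among them at only -0.03, with groups that overlap, and the dimmer Paics probe differed by 0.32 in the other direction. With doxycycline 4 of the 6 were lower, with a median of -0.12. Of all genes, 47% lay below zero without doxycycline and 51% with it. All 5 genes of deoxyribonucleotide supply lay lower in both treatments, with medians of -0.31 and -0.23 and 0 called, Dck at -0.48 and -0.46 and Tk1 at -0.31 and -0.19. Rrm2 differed by -0.43 without doxycycline, where its untreated δ spots were in a deviant tile, and by -0.23 with it. Nme1 differed by -0.48 and -0.42, Nme2 by -0.19 and -0.22, and Umps by -0.25 and -0.26. Paics was the lower in the δ line without doxycycline (-0.28) and the higher with it (0.39, limma adjusted p = 0.099). Adssl1 was not well above background on either untreated δ array. Its untreated means were -4.66 in β, from arrays at -4.19 and -5.14, and -5.72 in δ. That difference did not pass (limma adjusted p = 0.12). With δ readings raised to the lowest detected signal of their array, the β mean was 1.52-fold higher. The spread of the β arrays does not enter that value, so it is not a lower limit. Mthfd1 differed by -1.66 without doxycycline, on the spot described above, and by -0.35 with it.

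Other genes of the same pathways were read from lists that hold none of the 34. The processing alternatives were followed for the 34 genes only, so how the calls in these lists depend on processing is not known here. For doxycycline in a single line, 0 genes of these lists passed limma. As a mean of both lines, 3.12% of all genes passed. There 1 of 14 measured genes of pyrimidine salvage fell, Upp1, a uridine phosphorylase (-0.54, limma adjusted p = 0.020). Of 24 genes of purine salvage and interconversion 2 fell, Ampd3, an AMP deaminase (-0.74, limma adjusted p = 0.016), and Ak1, an adenylate kinase (-0.49, adjusted p = 0.041). Of 22 genes of glutamine and glutamate use and transport, Gfpt2, which spends glutamine on hexosamines (-0.70, limma adjusted p = 0.028), and Slc1a3, a glutamate transporter (-0.58, adjusted p = 0.047), fell. In size, Gfpt2 fell more in β and Slc1a3 more in δ, with a δ effect minus β effect of 0.69 and -0.77. By limma, 0 of the 22 genes passed for that difference (lowest adjusted p = 0.65), where 0.00526% of all genes did. Unlike effects in the lines were thus not shown for them. Slc7a11, which exports glutamate in exchange for cystine, rose (0.72, limma adjusted p = 0.033). Of 18 genes of folate, serine and glycine and of 9 genes of ribose 5-phosphate supply, 0 passed by limma, with 6 (4 lower and 2 higher) and 5 (4 lower and 1 higher) at an unadjusted p under 0.05, where 22.5% of all genes had one. In the latter list the values that came nearest in single lines were Taldo1, transaldolase, at -0.50 in both, and Pgd at -0.50 in the δ line. Among 9 regulators Myc fell (-0.38, limma adjusted p = 0.039) and Atf4, which drives amino acid genes, rose (0.42, adjusted p = 0.039). Of 19 proliferation genes 0 passed by limma with doxycycline, 9 (6 lower and 3 higher) had an unadjusted p under 0.05 in the mean of both lines against the same 22.5% of all genes, and 13 lay below zero in the β line and 12 in the δ line, with medians of -0.13 and -0.06. The part of proliferation in the values of the 34 genes was not tested.

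In the single lines the values nearest the threshold were these, all with limma adjusted p-values above 0.05. Upp1 differed by -0.46 in the β line and -0.62 in the δ line, and Ampd3 by -0.74 and -0.73. Gfpt2 differed by -1.04 in the β line (adjusted p = 0.057), and in the δ line Slc1a3 differed by -0.97 and Slc7a11 by 0.95. Of the folate genes, Mtrr, which keeps methionine synthase active, differed by -0.34 in the β line, and Mthfd2 and Psph by 0.37 and 0.94 in the δ line. Myc differed by -0.39 and -0.38 in the lines, and Atf4 by 0.50 in the δ line. Of the proliferation genes, Cdk1, the mitotic kinase, differed by -0.43 in the β line and Ccne2, a cyclin of the G1 to S step, by 0.41 in the δ line.

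Between the lines more of these genes passed limma, as did more of all genes, 13.2% without and 15.3% with doxycycline. No list was tested against those shares. Of the glutamine list 3 were lower in the δ line and 1 higher without doxycycline, and 2 and 1 with it. Gfpt2 was lower without and with doxycycline, at -1.39 and -0.70, and so was Slc7a11, at -1.46 and -1.01, with limma adjusted p-values of at most 0.0211. Of the folate list 3 were lower and 1 higher without doxycycline, and 2 and 1 with it. Shmt2 (-0.58 and -0.69) and Mthfd2 (-0.82 and -0.55), which work beside Mthfd1l in mitochondria, were lower in both treatments, Slc25a32, the mitochondrial folate carrier, was lower without doxycycline (-0.62), and Ggh, which trims folate chains, was higher in both (0.82 and 0.77). Of the purine salvage list 1 was lower and 1 higher without doxycycline, and 1 and 4 with it. Nme4, a mitochondrial nucleoside diphosphate kinase, was higher (1.15 and 1.18), Nt5e, the surface nucleotidase that releases adenosine, lower (-0.83 and -0.80), and Nme7 higher with doxycycline (0.57). Of the pyrimidine salvage list 1 was lower, Upp1 (-0.63 and -0.78), and 1 higher, Uckl1, a uridine kinase-like gene (0.62 and 0.72), in each treatment. In ribose 5-phosphate supply 0 passed by limma without doxycycline, with 3 at an unadjusted p under 0.05 (27.8% of all genes had one), and with it Pgd was lower (-0.47, adjusted p = 0.040) and Prpsap1, a partner of the PRPP synthetases, higher (0.44, adjusted p = 0.050).

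Regulators and proliferation genes were compared between the lines as well. Of the 9 regulators 3 were lower in the δ line and 2 higher without doxycycline, and 2 and 3 with it. Of all genes, 13.2% passed limma without doxycycline and 15.3% with it. Myc was lower, at -0.77 and -0.76 (limma adjusted p = 0.0034 and 0.0040), and so was E2f2, a cell cycle transcription factor, at -1.06 and -0.81. Mxi1 and Mxd1, repressors that compete with MYC for MAX, were higher, by 0.92 and 0.83 and by 0.61 and 0.76. Of the 19 proliferation genes, 18 lay below zero without doxycycline (median -0.24) and 17 with it (median -0.15). Limma called 3 lower without doxycycline (Cdk1 at -0.71, Mcm5 at -0.59 and Cdc6 at -0.57) and 2 with it (Cdk1 and Cdc6, at -0.48 and -0.54). Of all 19023 genes, limma called 1004 lower without doxycycline and 1049 lower with it, and 13.2% and 15.3% in either direction. The 3 and 2 of 19 were not tested against these. Markers of cell identity also differed, in both directions. Of the general epithelial genes, Krt8 was lower in the δ line, at -1.88 and -2.11, and Krt18 differed by -0.74 and -0.31. Of 7 cortical genes tested, limma called 1 lower and 1 higher in each treatment. Their differences ran from -1.23 (Prss16) to 0.83 (Cxcl12) without doxycycline and from -0.87 to 0.55 with it. Of 4 endothelial genes tested, 2 lay below zero and 2 above without doxycycline, and 1 below and 3 above with it. Limma called 1 higher and 0 lower in each treatment. Kdr read -0.20 and -0.09 on untreated β and 1.76 and 1.68 on untreated δ arrays. Pecam1 read -0.80 and -1.19 against -1.52 and -1.26. Cdh5 and Tek each had 1 untreated array apart, at -0.96 against -5.10 in β for Cdh5 and at -2.37 against -4.31 in δ for Tek. Of the 3 medullary genes tested, Krt14, a keratin, was lower at -3.74 and -3.67 and the other two did not pass limma in either treatment, Aire at 0.07 and -0.15 and Krt5 at -0.07 and -0.48. The log2 of the summed linear level of the 4 general epithelial markers ranged from 4.61 to 4.72 on untreated β arrays and from 3.30 to 3.34 on untreated δ arrays. The same sum over the 6 fibroblast markers ranged from 8.82 to 8.92 and from 8.84 to 8.87, but single markers went both ways. Col1a2 was higher in the δ line (0.62 and 0.44) and Col1a1 lower with doxycycline (-0.59). Thy1 differed by -3.86 and -2.13 without passing limma (adjusted p = 0.061 and 0.22). It read -0.004 on the untreated δ replicate 1 and 3.57 on replicate 2, so 1 array enlarged the -3.86. The spread between those arrays enters both tests. Thy1 read 3.49 and 3.54 on treated δ arrays and 5.53 to 5.76 on the β arrays. The part of these differences in the values of the 34 genes was not tested.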

How the data were processed

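Total RNA, 200 ng per sample, was labelled by low input amplification and hybridised to one-colour arrays, per the labels' protocols. Per the file headers, the authors quantified the scans with Agilent Feature Extraction, version 11.5.1.1 (11.5.11 in the submitters' processing notes). What they deposited is spot intensity on a linear scale, from which that software had subtracted background and spatial trends, and the arrays were not scaled to each other. The size of its multiplicative detrending (root mean square) was 0 on 3 treated arrays, 0.081 on the treated β replicate 1 and 0.067 to 0.126 on the untreated arrays. Deposited flags for detection and outlying spots were used as given, as were other fields such as spot position. The file headers name build mm9 for the array design, and no coordinates were taken from them.

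Processed intensity was put on the log2 scale, averaged over a probe's spots without controls and outliers, and expressed relative to the 75th percentile of the array. Of 56605 probes, 98 without an unflagged spot on some array were left out. Probes were named through a RefSeq table of GRCm38.p6 by unversioned accession (32931 named, 23576 not) and kept if both arrays of some group were well above background. The brightest probe stood for each gene, leaving 19023 genes. A limma model (version 3.58.1, with lmFit and eBayes in R 4.3.3) gave each of the 4 groups its own mean over all 8 arrays, leaving 4 residual degrees of freedom. Benjamini-Hochberg adjustment covered every gene tested, and the threshold was 0.05. The fit was tested on simulated data. The number of arrays limits the precision.

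The genes and the lists of other pathway genes were chosen with earlier results of these data known. Genes well above background on all 8 arrays with an unadjusted p of 0.01 or less in some comparison have their 8 values printed in full. The values of Paics, Ppat, Mthfd1 and the dimmer probes were added after they were seen. Of each other list, up to 3 genes per comparison were named among those past the threshold, and otherwise some of those with the smallest p for doxycycline. Alternatives covered the scaling, background correction, filter, choice of probe, model, deviant tiles and each array left out. The mean signal planned for the background alternative was replaced by the median signal. A planned comparison of paralogous proteins was not run. Some results of the other lists are not reported here.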

Additional observations from a re-analysis of the deposited data

Results flagged for a closer look

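Paics, a purine synthesis gene, went opposite ways in the lines, with no overlap between treated and untreated arrays in either. With doxycycline it differed by -0.27 in β, with treated arrays (4.20 and 4.43) lying below both untreated ones (4.66 and 4.50), and by 0.41 in the δ line, where both treated arrays (4.66 and 4.74) lay above both untreated ones (4.19 and 4.40). The difference between the lines, 0.67 (SE 0.18), had an unadjusted p of 0.0103 and did not pass limma's adjustment over all genes (adjusted p = 0.65). Such an opposite split of separate groups was found in 1 of the 34 genes (2.94%) and in 6.03% of all genes tested. The dimmer Paics probe did not share it, at 0.40 in the β line and 0.16 in the δ line.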

How the results depend on the processing

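With doxycycline, the genes passing limma in the mean of both lines numbered 2 of 34 and became 0 with median centring or a replicate block, 1 with normexp (on the median signal), 4 with quantile normalization or with the 75th percentile of always-detected probes, 5 with slide column as a random block or without deviant tiles, and 6 without a filter, with only probes well above background on all arrays, or with an intensity trend. In the β line alone 0 became 1, Dhodh, with only probes well above background on all arrays. Between the untreated lines 6 became 3 with median centring or a replicate block and 1 when only the arrays compared were fitted. Between the treated lines 3 became 1 with median centring or a replicate block, 6 with the 75th percentile of always-detected probes or when only the arrays compared were fitted, and 7 with quantile normalization. Leaving out 1 array at a time gave 0 to 4 for the mean of both lines, 0 to 2 for the δ line, 0 to 1 for the difference between the lines, 3 to 7 between the untreated and 1 to 4 between the treated lines, and 0 throughout for the β line. The share of all genes passing under each alternative, here and in the Results, is not given. A shift in these counts may thus be shared by all genes, and none is read as particular to the 34. The cause of these shifts was not tested, except that fewer arrays or genes enter some fits. The median difference over the 34 genes moved by less than 0.16 in all 106 alternative values of its 6 comparisons. For doxycycline in the β line it ranged from -0.19 to -0.017. The bound of 0.16 was the SD, between replicate arrays, of an array's median level over the 34 genes. It is not an SD of the median difference and does not measure its uncertainty. It is also larger than each doxycycline median (-0.10, -0.03, -0.07 for the mean, 0.13 for the difference). A median could thus vanish or change sign and still stay within that bound. The δ line's median ran from -0.086 to 0.0059 with 1 array left out. The array medians lay furthest apart in untreated δ, at 2.77 and 3.18. Of 532 values for single named genes, 440 kept direction and call, 64 lost the call, 26 gained it and 2 reversed: Cad in the β line as a mean over its probes (0.036) and Glul in the δ line without deviant tiles (-0.0094, on another probe). Glul between the lines passed under all 20 alternatives of each comparison, from 1.13 to 1.88 without and from 1.18 to 1.63 with doxycycline. Replicate numbers only name the arrays, and same-numbered arrays correlated in their deviations at 0.02 in the β and 0.08 in the δ line. With 2 arrays a group, the median SE of a difference in 1 line was 0.12 on the log2 scale, which limits what could be called.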
